A study of Mus musculus with 6 samples.

Results

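The genes described here are 54 members of the TGF-beta and BMP signalling system, taken by symbol from tables of 55484 genes measured in mouse femoral bone. They cover 18 ligand genes, the protease Bmp1, 4 latent TGF-beta binding proteins, 12 receptors with their co-receptors, 8 SMAD proteins, 7 secreted antagonists and follistatin-like proteins, and the 4 Id response genes. All 54 symbols were found. The authors tested 51 of them, and the other 3 (Gdf5, Gdf6 and Bmpr1b), with at most 0.217 FPKM in either group, have the status NOTEST.

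Both groups were wild-type male C57BL/6 mice, fed a normal chow diet (ND) and housed singly from 6 weeks of age for 6 weeks. The sedentary group (SED, 3 libraries) had cages without a wheel, and the running group (WCR, 3 libraries) could use a running wheel at will. All were 12 weeks old when femoral bone was taken. The comparison asks which transcripts differ in the femur after voluntary running. The unit is FPKM, the fragments that match a transcript per kilobase of its length, scaled for library depth. Each gene has 1 such value for a group, pooled over 3 mice, with the bounds of an interval whose level is not stated. No SD between mice can be given. Every call is the authors', and a gene is called when its q in the authors' deposited table is under 0.05. Log2 folds compare running with sedentary mice after 0.1 was added to each FPKM, which understates the change of low genes.

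TGF-beta family ligands bind pairs of type I and type II receptor kinases, which phosphorylate receptor-regulated SMADs. These join Smad4 and enter the nucleus, where the TGF-beta and activin branch (Smad2 and Smad3) and the BMP branch (Smad1, Smad5 and Smad9) act on different genes. In bone, TGF-beta is stored in the matrix as a latent complex and released during resorption, and BMPs promote the differentiation of osteoblasts.

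The tissue label fitted its markers: the bone matrix genes Bglap, Ibsp and Dmp1 stood at 3157, 562 and 145 FPKM in sedentary mice. Of the osteocyte markers, Pdpn was listed at 0 in both groups. The neutrophil gene S100a9, at 20406 FPKM, shows that marrow or blood cells contributed. The size of single fragments in the lowest values gave rounded depths of 14300000 to 16500000 fragments for the sedentary and 13800000 to 17400000 for the running libraries, on the assumption that each group value averages 3 scaled libraries. The search was confined beforehand to the same range of sizes in both groups. Depths far outside these values could not have been found, so the likeness of the groups is partly built in. Among the tested members the interval reached on the median 28.4% of the FPKM to either side in sedentary and 26.5% in running mice.

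No member was called in either direction. By the q of the authors' deposited table, 0.941% of the 15508 tested genes were called, 0.445% higher and 0.497% lower, and the smallest q of any member was 0.0823 (Bmp3). At an unadjusted p under 0.05 the Cuffdiff-type test of the authors listed 12 of the 51 members (23.5%), all with the higher value in running mice, against 5.65% of all tested genes in either direction, 3.42% higher and 2.22% lower. Their folds ran from 1.18 to 1.49. For none of the 51 did the intervals of the 2 groups lie apart, which was so for 0.574% of all tested genes. The deposited test statistic of the 12 was at most 1.90 in size, under the 1.96 that a normal score needs for a two-sided p of 0.05. The same held for 702 of the 876 genes with a p under 0.05, or 4.53% of all tested genes, and 1.08% had both a p under 0.05 and a statistic of at least 1.96 in size. The deposited p is thus not a normal reading of this statistic, and the 1.96 limit does not check it. The smallest deposited p of any tested gene was 5e-05. Because none of the 12 has a q under 0.05, they are described below by their values and not as changed genes.

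The members leaned to higher values in running mice. Of the 51 tested, 39 had a positive log2 fold (76.5%, against 48.2% of all tested genes), and their median log2 fold was 0.17, against -0.01 over all tested genes. A log2 fold of at least 0.3 was seen in 12 members (9.69% of all tested genes) and one of at most -0.3 in 1 member, Chrd (7.98% of all tested genes). Members share cells and libraries and are not replicates, so these counts describe the pooled libraries. In bulk bone, fewer cells of a type and less RNA per cell cannot be told apart.

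**Figure D1:**
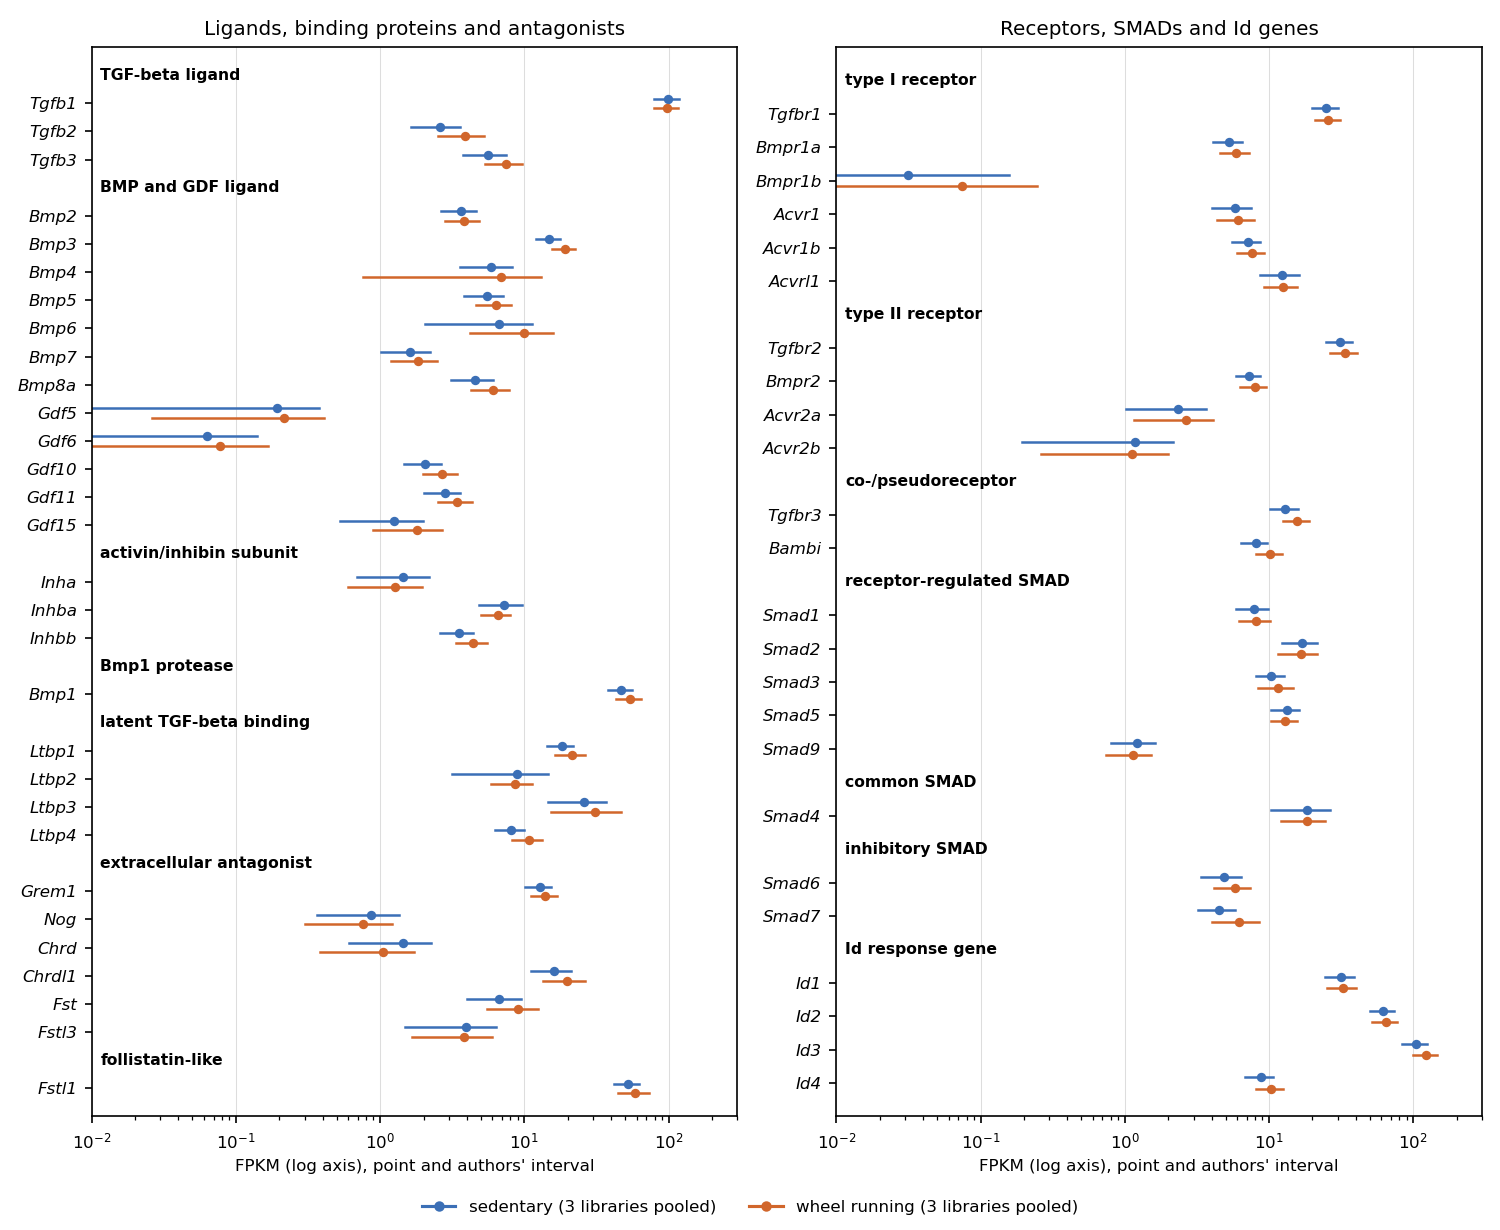
FPKM of all 54 members on a log axis, by role, in sedentary (blue) and wheel running mice (orange). Points are the authors' group values over 3 pooled libraries and bars are the authors' intervals, drawn from 0.01 FPKM where they reach lower. The intervals of the 2 groups overlap for every member, and levels run from under 0.1 FPKM (Bmpr1b) to above 100 FPKM (Id3).

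Role medians of the log2 fold ran from -0.14 over the 3 activin and inhibin subunits to 0.42 over the 3 TGF-beta ligands. The latter is the value of Tgfb3, the middle one of 3. The median was 0.31 over the 10 tested BMP and GDF ligands and 0.25 over the 4 latent binding proteins. It was 0.08 over the 5 tested type I receptors and 0.12 over the 4 type II receptors. Over the 5 receptor-regulated SMADs it was -0.03, and over the 2 inhibitory SMADs 0.35. The 6 antagonists had a median of 0.05, with 3 positive and 3 negative values. No test compared the roles with each other.

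**Figure D2:**
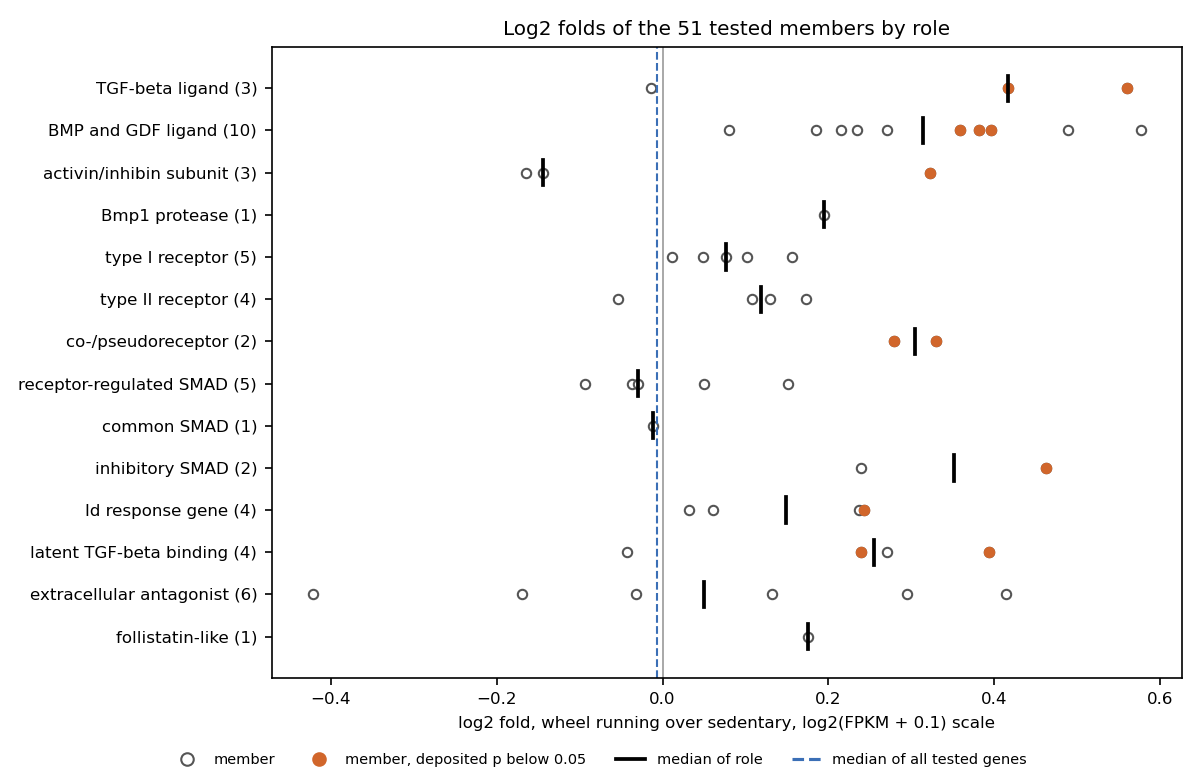
Log2 folds of the 51 tested members by role, running over sedentary. Filled points have a deposited p under 0.05, black bars are role medians and the dashed line is the median of all tested genes (-0.01). The 12 filled points are all positive and lie in 7 roles, with none among the type I and type II receptors, the receptor-regulated SMADs or the antagonists.

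Of the TGF-beta ligands, Tgfb1 was by far the most abundant. Tgfb1 (ENSMUSG00000002603; chromosome 7, 25687002 to 25705077, plus strand, GRCm38) stood at 98.7 FPKM (interval 79.8 to 118) in sedentary and 97.8 (79.3 to 116) in running mice. The interval therefore spans almost the same range in both groups. Tgfb2 (chromosome 1, 186622792 to 186705989, minus strand) stood at 2.61 FPKM (1.63 to 3.58) in sedentary and 3.89 (2.54 to 5.25) in running mice, a 1.49-fold ratio and a log2 fold of 0.56. The authors' deposited table gave it a p of 0.00185 and a q of 0.132. Tgfb3 (chromosome 12, 86056745 to 86079041, minus strand) stood at 5.59 FPKM (3.77 to 7.41) and 7.496 (5.35 to 9.64), with a log2 fold of 0.42 and a q of 0.622 in the authors' deposited table. For both minor isoforms the running value lay above the upper bound of the sedentary interval, while the intervals of the 2 groups overlapped. Per length, Tgfb1 exceeded Tgfb2 37.9-fold in sedentary and 25.1-fold in running mice, and Tgfb3 17.7-fold and 13.0-fold. Summed over the 3 ligands, the level was 107 FPKM in sedentary and 109 in running mice. Exons of Tgfb2 and Tgfb3 overlap opposite-strand transcripts whose own mean values are at most 0.0466 FPKM.

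The 250 bases before the RefSeq start sites of Tgfb1, the major isoform with nearly equal values in both groups, and of Tgfb2, Bmp8a and Inhbb, ligand genes with a p under 0.05, are shown to set the promoters side by side (GRCm38.p6, 5′ to 3′ on the gene's strand). Capitals mark matches on either strand to CAGAC, the core of the SMAD binding element, to GGCGCC, a BMP-type SMAD element, or to GGAATG, the TEAD site.
Tgfb1: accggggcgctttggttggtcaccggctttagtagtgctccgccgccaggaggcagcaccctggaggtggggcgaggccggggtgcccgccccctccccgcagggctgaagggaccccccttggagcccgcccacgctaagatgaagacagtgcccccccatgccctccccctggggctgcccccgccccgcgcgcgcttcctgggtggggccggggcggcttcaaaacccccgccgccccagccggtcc
Tgfb2: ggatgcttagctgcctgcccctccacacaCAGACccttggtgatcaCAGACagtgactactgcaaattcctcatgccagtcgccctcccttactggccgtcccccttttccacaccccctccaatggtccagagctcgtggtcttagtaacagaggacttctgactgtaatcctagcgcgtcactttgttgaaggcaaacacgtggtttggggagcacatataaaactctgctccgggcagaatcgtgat
Bmp8a: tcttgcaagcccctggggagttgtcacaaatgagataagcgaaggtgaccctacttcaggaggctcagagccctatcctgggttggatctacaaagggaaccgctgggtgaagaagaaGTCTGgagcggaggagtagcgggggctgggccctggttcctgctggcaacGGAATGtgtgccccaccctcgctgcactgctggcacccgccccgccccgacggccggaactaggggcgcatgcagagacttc
Inhbb: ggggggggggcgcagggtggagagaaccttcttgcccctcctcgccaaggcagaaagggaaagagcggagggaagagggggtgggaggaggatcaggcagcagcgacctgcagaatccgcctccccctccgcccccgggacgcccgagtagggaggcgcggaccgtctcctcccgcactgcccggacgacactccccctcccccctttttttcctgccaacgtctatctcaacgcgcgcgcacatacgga

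The Tgfb1 window (chr7:25686752-25687001, plus strand) had a GC content of 75.2%, 21 CpG dinucleotides and no match to the 3 motifs. The Tgfb2 window (chr1:186705990-186706239, minus strand) had a GC content of 53.6%, 8 CpG dinucleotides and 2 matches to CAGAC. In Bmp8a (chr4:123343253-123343502, minus strand) the GC content was 62%, with 1 match to CAGAC (as GTCTG) and 1 to GGAATG. The Inhbb window (chr1:119422249-119422498, minus strand) had a GC content of 68%, 21 CpG dinucleotides and, like that of Tgfb1, no match. The window of Gdf10, also a ligand gene with a p under 0.05, held 1 match to CAGAC. Over all 32851 promoter windows of this length the median GC content was 52.4%, and 42.2% held CAGAC, 9.59% GGCGCC and 12.6% GGAATG. These windows belong to 27025 genes, so some genes count there with more than 1 start. Promoters were listed for 37 of the 54 members, each counted with 1 window, that of the start farthest upstream. Of these 37, 17 held CAGAC, 8 GGCGCC and 3 GGAATG. No window is shown for Tgfb3 and Bmp3, which are also ligand genes with a p under 0.05. A match describes these letters and is not evidence of binding.

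Among the BMP and GDF ligands all 10 tested genes had a positive log2 fold, from 0.08 (Bmp2) to 0.58 (Bmp6). Bmp3, which encodes a BMP that opposes osteogenic BMP signalling and is made by osteoblasts and osteocytes, had the highest level of them. Bmp3 (ENSMUSG00000029335; chromosome 5, 98854415 to 98884396, plus strand) stood at 14.8 FPKM (12.1 to 17.6) in sedentary and 19.0 (15.5 to 22.6) in running mice, a 1.28-fold ratio. Its q of 0.0823 in the authors' deposited table was the lowest of the members. Per length, Bmp3 exceeded Bmp2, an inducer of bone formation, 4.09-fold in sedentary and 4.96-fold in running mice. Bmp2 itself stood at 3.63 and 3.84 FPKM.

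Gdf10, an extracellular ligand related to Bmp3, stood at 2.049 FPKM (1.47 to 2.63) in sedentary and 2.70 (1.995 to 3.40) in running mice. Its q was 0.498 in the authors' deposited table. Bmp8a stood at 4.59 FPKM (3.12 to 6.05) and 6.07 (4.29 to 7.84), with a q of 0.676 in the authors' deposited table. These 2 ligands and Bmp3 are the BMP and GDF ligands with a p under 0.05. Bmp6, an osteogenic ligand that also regulates hepcidin in the liver, had the largest log2 fold of all members, but its values, 6.65 FPKM (2.048 to 11.3) and 9.96 (4.22 to 15.7), carry wide intervals. Its exons overlap those of Txndc5 on the opposite strand, at a mean of 46.2 FPKM, and whether fragments were shared was not tested. Gdf15, a circulating stress hormone, stood at 1.25 FPKM (0.525 to 1.97) and 1.79 (0.898 to 2.68), also with overlapping intervals.

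The remaining BMP and GDF ligands had smaller differences. Bmp4 stood at 5.88 and 6.94 FPKM, and its interval in running mice reached from 0.761 to 13.1. Bmp5 stood at 5.50 and 6.40 FPKM, Bmp7 at 1.61 and 1.85 FPKM, and Gdf11 at 2.82 and 3.42 FPKM. Gdf5 (0.192 and 0.217 FPKM) and Gdf6 (0.0633 and 0.0779 FPKM), joint-forming ligands, were not tested. Summed over the 12 genes, the level was 49.1 FPKM in sedentary and 62.3 in running mice, of which Bmp3 is the largest part.

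The activin and inhibin subunits had log2 folds of both signs. Inhba, the subunit of activin A, stood at 7.22 FPKM (4.82 to 9.62) in sedentary and 6.52 (5.05 to 8.002) in running mice. Inhbb, the subunit of activin B, stood at 3.52 FPKM (2.61 to 4.42) and 4.42 (3.35 to 5.49), with a q of 0.665 in the authors' deposited table. Inha, the inhibin alpha subunit, stood at 1.44 and 1.27 FPKM. Inhba and Inha thus had log2 folds of -0.14 and -0.16 and Inhbb one of 0.32, all uncalled.

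Ligand storage and processing genes were well expressed. Ltbp4, a latent TGF-beta binding protein with a role in elastic fibre assembly, had the second-lowest q of the members. Ltbp4 (chromosome 7, 27305136 to 27337692, minus strand) stood at 8.13 FPKM (6.24 to 10.02) in sedentary and 10.7 (8.23 to 13.2) in running mice, a log2 fold of 0.39 with a q of 0.0979 in the authors' deposited table. Ltbp1, a carrier of latent TGF-beta, stood at 18.2 FPKM (14.5 to 21.8) and 21.4 (16.3 to 26.5), with a p of 0.0369 and a q of 0.794 in the authors' deposited table. Both running values lay inside or just above the sedentary interval. Ltbp2, a relative that does not bind latent TGF-beta, stood at 8.88 and 8.62 FPKM. Bmp1, which despite its name is a procollagen C-proteinase that also frees ligands from chordin and latent complexes, stood at 47.0 FPKM (38.2 to 55.9) and 53.8 (43.1 to 64.5).

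The signalling receptors had similar values in both groups. Tgfbr2, the type II receptor of TGF-beta, stood at 31.1 FPKM (24.8 to 37.5) in sedentary and 33.6 (26.7 to 40.5) in running mice, and its type I partner Tgfbr1 at 25.0 (20.0 to 29.9) and 25.8 (20.8 to 30.9). Bmpr2, the type II receptor of BMPs, stood at 7.27 FPKM (5.89 to 8.66) and 7.97 (6.34 to 9.59). Tgfbr2 exceeded Bmpr2 4.28-fold per length in sedentary and 4.22-fold in running mice. Acvrl1, the endothelial type I receptor, stood at 12.4 FPKM (8.65 to 16.0) and 12.5 (9.25 to 15.6). Across the 9 tested type I and type II receptors the log2 folds lay between -0.05 and 0.17, and no p was under 0.05 in the authors' deposited table. The interval of each receptor in one group contained its value in the other.

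Of the other receptors, Bmpr1a, a type I receptor of BMPs, stood at 5.28 and 5.89 FPKM, Acvr1 at 5.78 and 6.10 FPKM, and Acvr1b, which carries activin signals, at 7.11 and 7.63 FPKM. Acvr2a stood at 2.33 and 2.64 FPKM and overlaps exons of Orc4 on the opposite strand, at a mean of 23.9 FPKM. Acvr2b stood at 1.18 and 1.13 FPKM. Bmpr1b, at 0.0312 and 0.0748 FPKM, was not tested, and the lower bound of its interval was 0 in both groups.

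The accessory receptors Bambi and Tgfbr3 each had a p under 0.05 without a call. Bambi, a pseudoreceptor that lacks a kinase domain and dampens TGF-beta and BMP signals, stood at 8.08 FPKM (6.41 to 9.75) in sedentary and 10.2 (8.14 to 12.2) in running mice. The authors' deposited table gave it a p of 0.005 and a q of 0.275. Tgfbr3 (betaglycan), the co-receptor that presents TGF-beta 2 to its receptors, stood at 13.0 FPKM (10.1 to 15.8) and 15.7 (12.4 to 19.1), with a log2 fold of 0.28 and a p of 0.0136 in the authors' deposited table. The running value of Bambi lay above the sedentary interval and that of Tgfbr3 just inside it.

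The SMADs that carry the signal had nearly equal values in both groups, and the inhibitory SMADs had larger values in running mice, none of them called. Of the TGF-beta branch, Smad2 stood at 16.98 FPKM (12.3 to 21.7) in sedentary and 16.5 (11.6 to 21.5) in running mice, and Smad3 at 10.4 and 11.6 FPKM. Of the BMP branch, Smad5 stood at 13.2 FPKM (10.4 to 16.1) and 13.0 (10.4 to 15.5), Smad1 at 7.88 and 8.16 FPKM and Smad9 at 1.22 and 1.13 FPKM. The shared partner Smad4 stood at 18.4 FPKM (10.4 to 26.4) and 18.3 (12.2 to 24.4). Summed over these 6 genes the level was 68.1 FPKM in sedentary and 68.6 in running mice. Their log2 folds ran from -0.09 to 0.15, and the small negative values of Smad2, Smad4 and Smad5, like that of Tgfb1, turned positive after both groups were set to an equal total FPKM.

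Smad7, an inhibitor of both branches that TGF-beta signalling itself induces, stood at 4.499 FPKM (3.21 to 5.79) in sedentary and 6.24 (3.998 to 8.48) in running mice. This 1.39-fold ratio had a p of 0.0094 and a q of 0.394 in the authors' deposited table. Smad6, an inhibitor mainly of the BMP branch, stood at 4.89 FPKM (3.40 to 6.37) and 5.79 (4.16 to 7.41). Neither gene was called.

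The extracellular antagonists were mixed. Chrdl1, a chordin-like BMP antagonist, was the most abundant of the 6, at 16.1 FPKM (11.1 to 21.2) in sedentary and 19.8 (13.4 to 26.2) in running mice. Grem1, a BMP antagonist of marrow stromal and other mesenchymal cells, stood at 12.7 FPKM (10.2 to 15.3) and 14.0 (11.2 to 16.8). Fst, which neutralises activins, stood at 6.73 FPKM (3.98 to 9.47) and 8.997 (5.47 to 12.5), a log2 fold of 0.41 with a p of 0.0715 in the authors' deposited table.

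Chordin itself had the lowest log2 fold of all members. Chrd stood at 1.44 FPKM (0.605 to 2.27) in sedentary and 1.05 (0.384 to 1.71) in running mice, a log2 fold of -0.42 with a p of 0.149 in the authors' deposited table. Nog (noggin) stood at 0.864 and 0.757 FPKM, so that Grem1 exceeded it 14.8-fold and 18.5-fold per length. Fstl3, an activin antagonist, stood at 3.91 and 3.83 FPKM and overlaps Prss57 on the opposite strand, at a mean of 12.8 FPKM. Fstl1, a secreted glycoprotein related to follistatin by sequence, was more abundant than any antagonist, at 52.2 FPKM (42.2 to 62.1) and 58.9 (44.3 to 73.5). None of these was called.

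The Id genes are direct targets of BMP signalling that encode inhibitors of basic helix-loop-helix factors. None was called, and Id1 and Id2 had nearly equal values in both groups. Id3 (chromosome 4, 136143497 to 136145755, plus strand) stood at 104 FPKM (84.0 to 124) in sedentary and 123 (99.2 to 147) in running mice, with a p of 0.0317 and a q of 0.752 in the authors' deposited table. Id2 stood at 62.0 FPKM (49.8 to 74.1) and 64.6 (52.0 to 77.2), and Id1 at 31.8 FPKM (24.5 to 39.1) and 32.5 (25.1 to 40.0). Id4 stood at 8.74 FPKM (6.87 to 10.6) and 10.3 (8.16 to 12.5). All 4 log2 folds were positive, from 0.03 for Id1 to 0.24 for Id3, and the running value lay inside the sedentary interval in each.

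**Figure D3:**
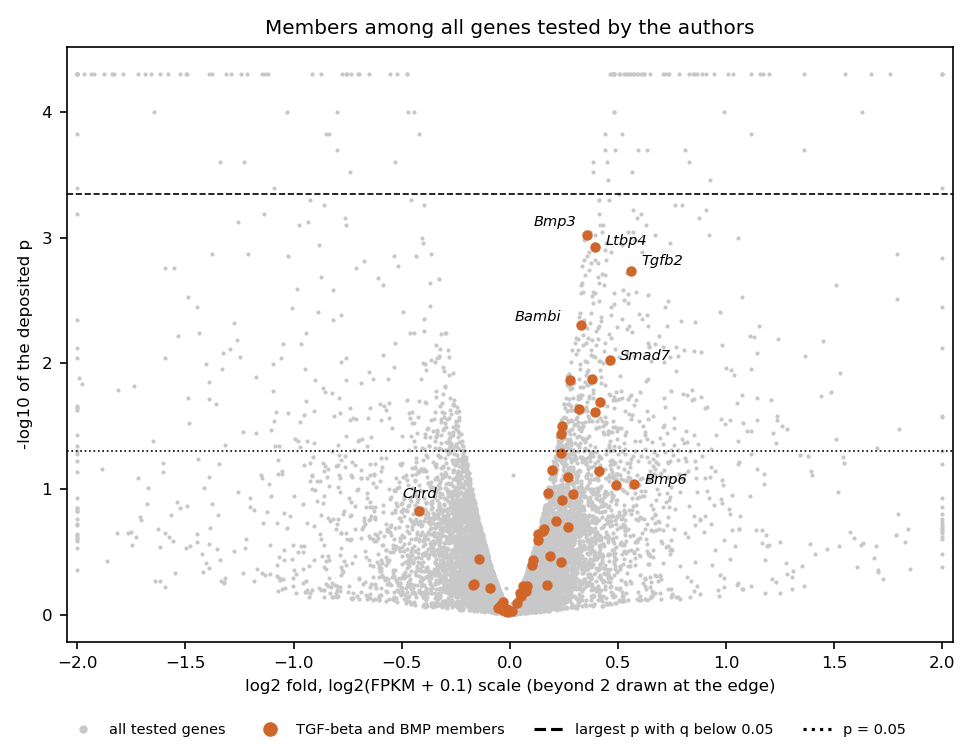
Deposited p (as -log10) against log2 fold for all 15508 tested genes (grey) and the 51 tested members (orange). The dashed line marks the largest p with a q under 0.05 (0.00045), and every member lies below it, with Bmp3, Ltbp4 and Tgfb2 closest.

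Of 124 further genes of the pathway, 93 were tested, and 5 were called, all higher in running mice. Of all tested genes 0.941% were called in either direction and 0.445% higher. The lists were chosen with earlier results of these data known, so their counts are descriptions and not independent evidence. The 5 called genes were Sost, Fmod, Ccn1, Cdkn1a and Igfbp3, and none had separate intervals. At an unadjusted p under 0.05 in the authors' deposited table there were 19 with a higher and 1 with a lower value, against 3.42% higher and 2.22% lower over all tested genes, and the median log2 fold was 0.12. None of the 17 regulators of SMAD proteins was called or had a p under 0.05, with a median log2 fold of 0.06. The most abundant of them, the deubiquitinase Usp15 (92.0 and 93.5 FPKM), the SMAD phosphatase Ppm1a (57.6 and 60.2 FPKM) and the receptor-binding immunophilin Fkbp1a (55.5 and 55.1 FPKM), were nearly equal.

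Of the 5 calls, 3 were TGF-beta response genes. Of 30 tested genes that TGF-beta is known to induce or regulate, these 3 were the only calls, all higher. Igfbp3, which encodes a binding protein of insulin-like growth factors, rose from 13.6 FPKM (10.5 to 16.6) to 19.3 (15.3 to 23.4). Cdkn1a, the cell cycle inhibitor p21, rose from 21.3 FPKM (16.7 to 25.9) to 29.7 (23.7 to 35.8). The matricellular gene Ccn1 rose from 81.3 to 114 FPKM. All 3 answer to several pathways besides TGF-beta. The relative Ccn2 stood at 80.1 and 104 FPKM (q = 0.0798 in the authors' deposited table). Timp3 (62.8 and 79.0 FPKM), Eln (4.16 and 5.54 FPKM) and Tsc22d1 (233 and 275 FPKM) also had a p under 0.05 without a call. The most abundant genes of this list without a deposited p under 0.05 were Spp1 (1416 and 1578 FPKM), Mmp13 (388 and 334 FPKM) and Fn1 (134 and 142 FPKM). Their log2 folds were 0.16, -0.21 and 0.09.

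None of the 14 tested BMP response genes was called, and 5 had a p under 0.05, all with higher values in running mice, against 3.42% of all tested genes. These were the homeobox genes Dlx3 (6.96 and 8.88 FPKM) and Dlx5 (11.7 and 14.9 FPKM), the phosphatase gene Alpl (84.9 and 102 FPKM), Ibsp (562 and 666 FPKM) and Tnfrsf11b, which encodes osteoprotegerin (5.78 and 7.87 FPKM). Their q values in the authors' deposited table were 0.140 or more. The list median was 0.22, and 13 of 14 log2 folds were positive. Bglap, the most abundant, stood at 3157 and 3184 FPKM.

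Among 7 other tested antagonists Sost was called, rising from 47.4 FPKM (38.4 to 56.3) to 66.2 (53.8 to 78.6); its product sclerostin belongs by sequence to the DAN family of BMP antagonists and acts mainly on Wnt receptors. Nbl1, the founding DAN gene, stood at 23.3 FPKM (18.4 to 28.3) and 31.1 (22.7 to 39.5), with a q of 0.0630 in the authors' deposited table. Twsg1 (16.4 and 16.9 FPKM) and Tsku (8.65 and 9.78 FPKM) had smaller differences. Of 17 tested genes of ligand activation, processing and matrix binding, Fmod, a collagen-binding proteoglycan that also binds TGF-beta, was called, rising from 24.2 FPKM (19.4 to 29.0) to 34.4 (27.9 to 40.8). Decorin (Dcn) stood at 371 and 431 FPKM and biglycan (Bgn) at 359 and 417 FPKM. Thbs1, an activator of latent TGF-beta, had the lower value in running mice, 107 against 126 FPKM, with a p of 0.0318 and a q of 0.752 in the authors' deposited table. The gelatinase Mmp9 stood at 439 and 427 FPKM.

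Of 15 further ligands 3 were tested and none was called. Lefty1 stood at 4.65 and 3.90 FPKM, Gdf3 at 2.59 and 2.06 FPKM, and Mstn (myostatin) at 0.733 and 1.11 FPKM, the last with a p of 0.0371 in the authors' deposited table. Bmp10, Gdf2, Inhbc and Inhbe were listed at 0 in both groups. Of the co-receptors, Eng (endoglin) stood at 25.5 and 29.2 FPKM and Hjv at 3.83 and 4.68 FPKM. Rgma, a BMP co-receptor, stood at 0.624 and 1.42 FPKM with intervals that began at 0 in both groups and a p of 0.0181 in the authors' deposited table.

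**Figure D4:**
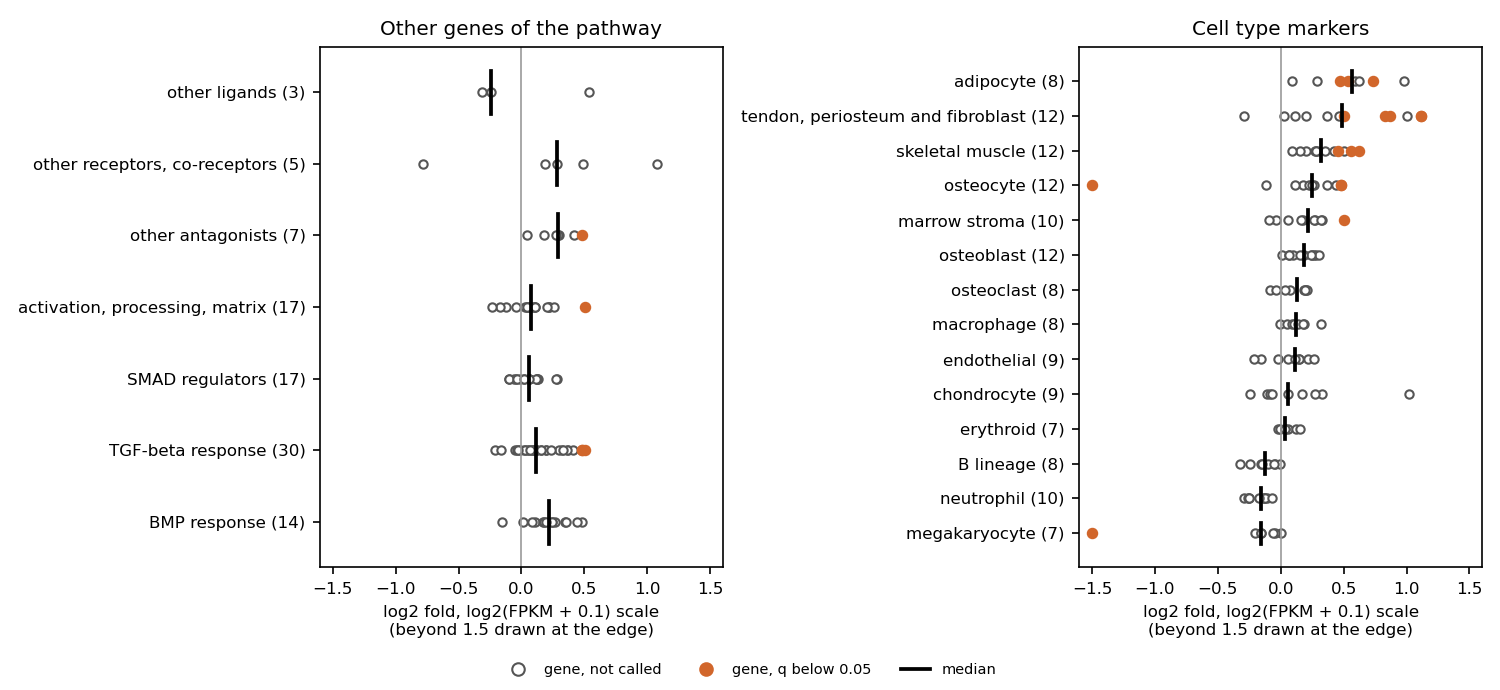
Log2 folds of 93 further pathway genes (left) and of cell type markers (right), with list medians as bars, called genes filled and the number tested in brackets. Called pathway genes are all positive, and marker medians run from 0.56 (adipocyte) to -0.16 (megakaryocyte).

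Of all tested genes 0.445% were called higher and 0.497% lower, and 48.2% had a positive log2 fold, and the marker lists are given beside these shares. Connective tissue markers were mostly positive, and neutrophil and B lineage markers were all negative, in the same pools. Of 12 tendon, periosteum and fibroblast markers 11 had a positive log2 fold and 5 were called higher, and their summed level was 175 FPKM in sedentary and 211 in running mice. All 12 skeletal muscle markers were positive with 3 called (1803 and 2201 FPKM summed), as were all 8 tested adipocyte markers with 3 called (370 and 527 FPKM). All 12 osteoblast markers were positive with none called (10572 and 11163 FPKM), and 10 of 12 tested osteocyte markers were positive, with 2 called higher and 1 lower (481 and 570 FPKM). Marrow stroma markers were positive in 8 of 10, with Lepr called higher, and summed to 1680 and 1832 FPKM.

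All 10 neutrophil markers had a negative log2 fold, none called (52616 and 44764 FPKM summed over the list, as for the other lists), as had all 8 B lineage markers (348 and 317 FPKM). Megakaryocyte markers were negative in 6 of 7, with Treml1 called lower, and summed to 1577 and 1449 FPKM. Chondrocyte markers were positive in 5 of 9 (375 and 401 FPKM), endothelial markers in 6 of 9 (199 and 205 FPKM), osteoclast markers in 6 of 8 (1802 and 1916 FPKM), macrophage markers in 7 of 8 (740 and 826 FPKM) and erythroid markers in 5 of 7 (8794 and 9312 FPKM), with none called. No marker but Pdpn was listed at 0 in both groups. Fmod, Sost, Postn, Tnfrsf11b, Mmp9 and several osteoblast genes stand in both a marker and a pathway list. The calls of Fmod and Sost are therefore counted in both. Vcam1 (171 and 213 FPKM, uncalled) stands in both the marrow stroma and the macrophage list and enters the sums and medians of both. The median log2 fold of the members was 0.17, and several marker lists had medians near it. These were osteocyte (0.25), marrow stroma (0.22), osteoblast (0.18), osteoclast (0.13), macrophage (0.12) and endothelial markers (0.12). Marker medians as a whole ran from 0.56 (adipocyte) to -0.16 (megakaryocyte). The part of these tissue markers in the members' values was not tested.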

How the data were processed

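Per the labels' protocols, TRIzol was used for femoral RNA and a NEBNext Ultra Directional kit for the polyA libraries. Cufflinks 2.2.1, HISAT2 2.2.1, Trimmomatic 0.39, SAMtools 1.10 and build GRCm38 are listed in the submitters' processing notes, without roles. The authors deposited 1 FPKM per group with interval bounds, and a log2 fold, a test statistic (score), a p-value and a q-value per gene, per the file headers. Of 55484 genes, 15508 were tested, 39971 have the status NOTEST and 5 HIDATA. The tables hold 0 columns of single libraries, so mice could not be tested against each other. Per-library fits had been planned only in case such columns were present, and the authors' q was used as planned otherwise. Adjusting the deposited p by Benjamini and Hochberg gave the deposited q within 5.21e-07. The use of strand in counting is not given in the sources used; exons of 17 members overlap another gene, and for 4 of them that gene has a mean of at least 1 FPKM. The values of some genes are not reported here.

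Log2 folds were computed from the group FPKM with a pseudocount of 0.1 (Python 3.11.15, pandas 2.3.3), and the code was tested on simulated data. Coordinates are those of GENCODE vM21 (GRCm38), matched by Ensembl ID, and promoter sequences those of RefSeq (GRCm38.p6), matched by symbol for 37 of 54 members; windows inside an annotated gene were not printed. Depth was read from single-exon genes over 1500 bp. The members and lists were chosen with earlier results of these data known. Full values were given for members called, with a p under 0.05, with separate intervals, or with FPKM of at least 1 and a log2 fold of at least 0.3 in size, and for the 2 highest of each role, apart from Ltbp3, which is not reported in the text; of the other pathway genes, those called or with a p under 0.05 and up to 3 abundant uncalled genes per list were named. Ahsp had no match.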

Additional observations from a re-analysis of the deposited data

How the results depend on the processing

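No paired analysis was possible because replicates were pooled into group values before deposit. Leave-one-out fits were not run either, so the weight of any 1 mouse is unknown. With no member called at q under 0.05, the count became 2 with q under 0.1 (Bmp3 and Ltbp4) and 12 at an unadjusted p under 0.05. Of these 12, 9 have no exon overlap with another gene, and 0 reach 1.96 with their test statistic, both settings chosen after seeing the data. The count stayed at 0 when p was adjusted over tested genes with FPKM of at least 1. It had to stay at 0 with q under 0.01 and with added demands on intervals or a log2 fold of at least 1. Those settings can only narrow a count that is already 0. The 5 called other pathway genes became 20 at an unadjusted p under 0.05, and 0 both with separate intervals and with a log2 fold of at least 1 in size. These changes follow from the looser or stricter demand. The members' median log2 fold of 0.17 ranged from 0.13 to 0.21 over 10 alternatives. An equal total FPKM in both groups raised log2 folds by 0.04, which turned the median of the receptor-regulated SMADs to 0.013 and that of the common SMAD to 0.031, and the log2 folds of Tgfb1 to 0.029, Smad2 to 0.0053, Smad5 to 0.013 and Smad4 to 0.031; these shifts are smaller than the intervals. For 11 tested members the interval exceeded 50% of the FPKM to either side in at least 1 group, which limits what their values can show.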
